A study of Homo sapiens with 18 samples.

Results

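Messenger RNA of 10 enzymes that remove hydrogen peroxide or superoxide was compared across 6 groups of A549, a long-established line from a human lung adenocarcinoma. The genes, taken by symbol from a table of 44016 features, were the superoxide dismutases SOD1 and SOD2, catalase (CAT), the glutathione peroxidases GPX1 and GPX4, and the peroxiredoxins PRDX2, PRDX3, PRDX4, PRDX5 and PRDX6. The groups were a stable S100A16 knockdown (KD) given 100 µM hydrogen peroxide (H2O2) for 2 h, the same KD untreated, a stable hnRNPM KD untreated, a stable MagoHB KD untreated, wild-type (WT) cells given 100 µM H2O2 for 2 h, and WT cells untreated. Each group had 3 libraries of poly(A) RNA. S100A16 is a calcium-binding protein, hnRNPM an RNA-binding splicing regulator and MagoHB part of the core of the exon junction complex. The controls were WT cells, with no line carrying only a vector, and all 3 untreated KDs were set against the same untreated WT libraries. The sources used here do not give how each KD was made or whether a line is 1 clone. The labels call the libraries replicates without naming separate cultures, so p-values measure the spread between these libraries, which may be technical.

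Superoxide is turned into H2O2 by the superoxide dismutases, SOD1 mainly in the cytosol and SOD2 in the mitochondrial matrix. Catalase in peroxisomes then breaks H2O2 down directly, whereas glutathione peroxidases draw on glutathione and most peroxiredoxins on thioredoxin. Transcription of many genes that supply these cofactors is driven by NRF2, which is constitutively active in A549 cells because they carry a mutant KEAP1, while SOD2 is a classical target of NF-kB.

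Promoter windows are shown for SOD2 and CAT, whose mRNAs had the 2 largest rises of the scavenging genes in a KD, and for GPX4, which had the largest fall. The windows run from 250 bases before to 50 bases after the start of transcription in RefSeq (GRCh38.p14), and capitals mark each CCAAT, which reads ATTGG when it lies on the other strand.
CAT: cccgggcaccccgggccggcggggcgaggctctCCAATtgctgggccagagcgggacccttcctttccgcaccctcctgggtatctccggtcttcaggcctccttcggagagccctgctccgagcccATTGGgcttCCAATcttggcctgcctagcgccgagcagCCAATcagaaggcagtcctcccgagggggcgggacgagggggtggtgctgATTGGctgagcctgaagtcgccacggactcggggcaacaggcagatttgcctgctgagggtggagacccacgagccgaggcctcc
GPX4: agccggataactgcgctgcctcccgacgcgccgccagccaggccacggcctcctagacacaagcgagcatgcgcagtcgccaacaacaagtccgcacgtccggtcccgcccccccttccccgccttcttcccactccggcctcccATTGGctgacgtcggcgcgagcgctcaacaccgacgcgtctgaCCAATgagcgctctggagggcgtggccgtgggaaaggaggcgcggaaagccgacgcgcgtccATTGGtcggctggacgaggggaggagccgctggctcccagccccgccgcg
SOD2: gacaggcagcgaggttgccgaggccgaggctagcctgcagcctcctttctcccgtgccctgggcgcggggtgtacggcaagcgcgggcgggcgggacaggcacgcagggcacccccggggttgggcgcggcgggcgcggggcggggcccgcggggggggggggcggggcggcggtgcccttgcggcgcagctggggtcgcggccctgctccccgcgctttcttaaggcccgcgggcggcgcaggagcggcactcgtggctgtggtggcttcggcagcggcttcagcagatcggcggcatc
The CAT window (chr11:34438684-34438983, plus strand) held 5 CCAAT boxes and the GPX4 window (chr19:1103744-1104043, plus strand) held 3. The SOD2 window (chr6:159693192-159693491, minus strand) held none and was 78.3% G and C. A CCAAT on either strand was found in 34.6% of 35116 RefSeq windows of the same length. No window examined for the scavenging genes held the core of the antioxidant response element, TGACNNNGC, or the NF-kB consensus on either strand. Those were present in 13.3% and 5.91% of all windows. Such matches describe letters only.

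Library totals ranged from 36612997 to 51406431 counts, and 22382 genes passed the filter on low counts. Each targeted mRNA was low in its own KD: S100A16 stood at 7.11% of WT untreated and 5.6% under H2O2, HNRNPM at 20.8% and MAGOHB at 34.8%. These mRNAs also fell in other KDs: MAGOHB to 0.444-fold of WT for the hnRNPM KD (adjusted p = 3.68e-06) and to 0.65-fold with S100A16 knocked down and no H2O2 (adjusted p = 0.00122), S100A16 to 0.512-fold for the MagoHB KD (adjusted p = 2.79e-07), and HNRNPM to 0.675-fold with S100A16 knocked down and no H2O2 (adjusted p = 0.000911) and 0.804-fold for the MagoHB KD (adjusted p = 0.0458). MAGOHB was not called different between the hnRNPM and MagoHB KDs (adjusted p = 0.0505). Untreated S100A16 KD library 1, hnRNPM KD library 3 and MagoHB KD library 2 stood apart from their partners, with a chi-square per degree of freedom of 30 to 64.9 against 3.09 to 5.59 for the other replicate pairs. The 6 epithelial markers summed to 4896 to 9041 CPM (counts scaled to an equal library total), and were higher in the S100A16 KD and hnRNPM KD libraries, at 7338 to 9041 CPM, than in untreated WT, at 5180 to 5600 CPM. The 6 fibroblast markers summed to 40 to 73.7 CPM in all KD libraries, against 76.6 to 108 CPM in untreated WT, with 3 of the 6 averaging under 1 CPM. Summed markers of leukocytes reached at most 2.01 CPM and those of endothelium 1.02 CPM, and no marker was at 0 in every library. Their part in the results was not tested.

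Per length, the scavenging mRNAs spanned a wide range of levels. In deposited RPKM (reads per exon length and library total), SOD1 had a median of 228 over the 18 libraries and PRDX5 a median of 185. SOD1 and PRDX5 took the first 2 ranks in every library, followed by GPX4 (97.1 RPKM), GPX1 (37.7 RPKM) and PRDX6 (29.6 RPKM) in that order. PRDX3 (13.7 RPKM), PRDX4 (11.6 RPKM) and CAT (10.4 RPKM) changed places between libraries. SOD2 had a median of 4.4 RPKM, but its exons sum to 18985 bases in the deposited table, which lowers its value per length. The RPKM of all 10 genes added up to 652 ± 9.3 in the S100A16 KD with H2O2, 602 ± 24 in the S100A16 KD, 666 ± 9.9 in the MagoHB KD and 545 ± 27 in the hnRNPM KD, against 636 ± 23 in WT with H2O2 and 612 ± 9.9 in WT (SD, n = 3 each). The lowest of these sums stood in the hnRNPM KD. They are scaled by library total alone. The further factors that edgeR uses to scale libraries were 0.908 to 0.932 in WT libraries and 0.97 to 1.1 in KD libraries. With those factors KD sums would be lower relative to WT, and the order of the groups was not computed.

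**Figure D1:**
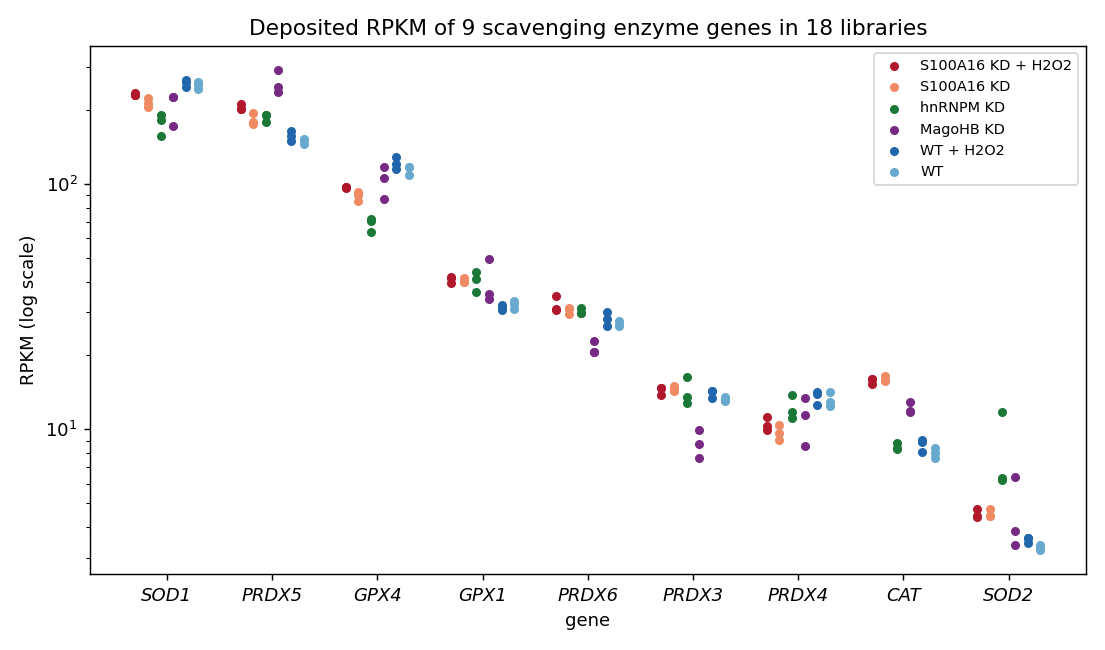
Deposited RPKM on a log axis for the 9 genes that passed the filter, with 1 point per library and 1 colour per group. SOD1 and PRDX5 lie highest in all 18 libraries, and the SOD2 points reach from 3.22 to 11.8 RPKM.

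PRDX2, a cytosolic peroxiredoxin abundant in red blood cells, was nearly uncounted. The hnRNPM KD had 4, 4 and 10 raw counts and the MagoHB KD 6, 13 and 2. The S100A16 KD had 8, 6 and 6 raw counts with H2O2 and 4, 6 and 10 untreated, against 4, 0 and 0 in WT with H2O2 and 4, 7 and 4 in WT untreated. The S100A16 KD with H2O2 lay above WT with H2O2 by a few counts and the untreated KDs overlapped untreated WT. The gene did not pass the filter and was not tested. Its exons (chromosome 19, 12796820 to 12801859) are overlapped on 14.1% of bases by CTD-2659N19.10 on the other strand. That gene had 0 to 6 raw counts per library, and 2 PRDX2 pseudogenes had 0 to 4 counts. The cause of the low PRDX2 counts was not tested. The sources used here do not name the program that assigned reads or its handling of such overlaps.

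Of the 9 genes tested, 4 were called in the untreated S100A16 KD against WT, 5 in the S100A16 KD against WT when both had H2O2, 4 for the hnRNPM KD and 7 for the MagoHB KD. A call is an adjusted p under 0.05 in edgeR's quasi-likelihood test with Benjamini-Hochberg adjustment over all tested genes. Over all tested genes 52.3%, 52.5%, 49.1% and 45.5% were called in those comparisons, so for the first 3 the share of the 9 was near that of all genes. By direction, 1 rose and 3 fell in the untreated S100A16 KD, where 27.6% of all genes rose and 24.8% fell, and 2 rose and 3 fell under H2O2, where 27.9% rose and 24.7% fell. For the hnRNPM KD 2 rose and 2 fell (25.4% and 23.8% of all genes), and for the MagoHB KD 2 rose and 5 fell (23.3% and 22.3%). SOD1 and GPX4 fell in all 3 KDs, PRDX5 rose for hnRNPM and MagoHB, and CAT rose in the S100A16 and MagoHB KDs. PRDX3 and PRDX6 fell in the MagoHB KD, and SOD2 rose in the hnRNPM KD. In bulk RNA, a change in the share of cells that express a gene and a change in RNA per cell cannot be told apart.

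**Figure D2:**
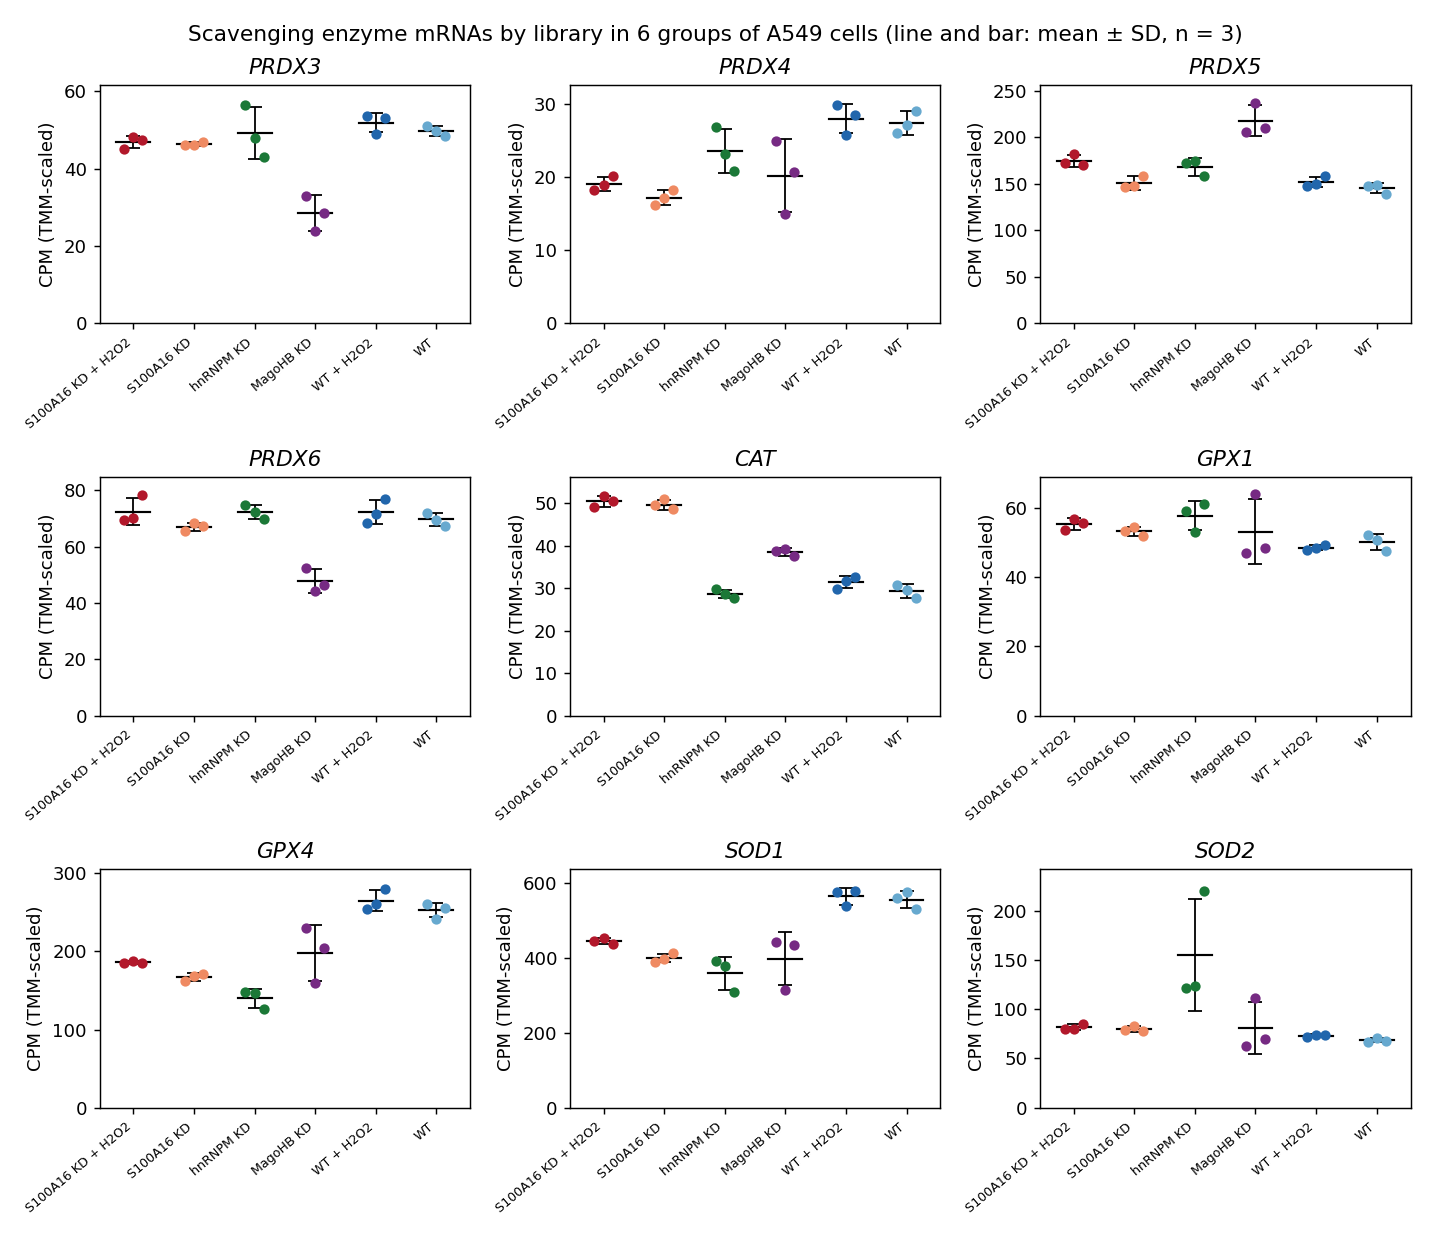
Expression by library in CPM scaled by TMM (edgeR's trimmed mean of M values), with the y axis from 0, 1 panel per gene and 3 points per group; the line and bar are the mean ± SD (n = 3). CAT separates both S100A16 KD groups (48.7 to 51.7 CPM) from both WT groups (27.6 to 32.6 CPM), and 1 hnRNPM KD library reaches 220 CPM of SOD2.

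SOD1, the copper and zinc enzyme (chromosome 21, 31659622 to 31668931), had 392, 379 and 310 CPM in the hnRNPM KD and 443, 316 and 434 CPM in the MagoHB KD. The S100A16 KD had 391, 399 and 413 CPM, against 560, 576 and 531 CPM in WT. All 9 KD libraries lay below all 3 untreated WT libraries. For the S100A16 KD the log2 fold change was -0.47 (SE 0.10, adjusted p = 0.000458). It was -0.63 for the hnRNPM KD (adjusted p = 2.54e-05) and -0.48 for the MagoHB KD (adjusted p = 0.00048). With H2O2 on both sides, SOD1 had 446, 454 and 438 CPM in the S100A16 KD, against 577, 539 and 580 CPM in WT, again without overlap (log2 -0.34, adjusted p = 0.00632). Scaled by total counts alone, that difference was -0.16 and was no longer called (adjusted p = 0.113). Without MagoHB KD library 2, the lowest of its group, the MagoHB KD value was -0.34 (adjusted p = 0.000193).

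SOD2, the mitochondrial manganese enzyme (chromosome 6, 159669057 to 159762529), had 121, 124 and 220 CPM in the hnRNPM KD, against 67.2, 70.6 and 67.7 CPM in WT. Every hnRNPM KD library was above every WT library, and library 3 was far above its partners. The log2 fold change was 1.18 (SE 0.22, adjusted p = 0.000634), a 2.27-fold rise, and without library 3 it was 0.84 (adjusted p = 0.00114). In the MagoHB KD, SOD2 had 62.8, 111 and 69.4 CPM, so that 1 library was high and the others lay near WT. The log2 fold change there was 0.24 (adjusted p = 0.404), and -0.05 (adjusted p = 0.872) without library 2. The S100A16 KD had 79.1, 83.1 and 77.4 CPM, all above WT, yet the difference of 0.22 was not called (adjusted p = 0.431). That test shares its spread with the hnRNPM and MagoHB KD libraries: with the 3 libraries that stand apart left out, the S100A16 KD difference was 0.21 and was called (adjusted p = 0.000283). WTAP and ACAT2 overlap SOD2 on the other strand over 12% of its exon bases. WTAP had 62.5, 68.3 and 69.6 CPM in the hnRNPM KD, all above the 60.5, 55.4 and 60.5 CPM in WT, a log2 difference of 0.18 that was not called (adjusted p = 0.0504). ACAT2 fell there by 0.54 on the log2 scale (adjusted p = 0.00201). In the MagoHB KD, WTAP rose by 0.24 (adjusted p = 0.013). Whether shared reads bear on SOD2 was not tested.

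Counts of SOD2 over counts of SOD1, a ratio within each library that no scaling changes, were 0.308, 0.328 and 0.712 in the hnRNPM KD and 0.142, 0.351 and 0.16 in the MagoHB KD. They were 0.202, 0.208 and 0.188 in the S100A16 KD, against 0.12, 0.123 and 0.128 in WT. All 9 untreated KD libraries therefore held more SOD2 counts per SOD1 count than any untreated WT library. This ratio was chosen after the values were seen and has no test.

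CAT, the peroxisomal enzyme (chromosome 11, 34438925 to 34472062), had 49.5, 51 and 48.7 CPM in the S100A16 KD, against 30.8, 29.5 and 27.6 CPM in WT. With H2O2 it had 49.1, 51.7 and 50.6 CPM in the S100A16 KD, against 29.8, 31.8 and 32.6 CPM in WT. The groups did not overlap in either setting, and replicates differed by little. The log2 fold change was 0.76 (SE 0.06, adjusted p = 5.05e-10), or 1.7-fold, untreated and 0.68 (SE 0.06, adjusted p = 2.77e-09) under H2O2. In the MagoHB KD, CAT had 38.8, 39.3 and 37.5 CPM, between the S100A16 KD and WT, with a rise of 0.40 (adjusted p = 9.99e-06). The hnRNPM KD had 29.9, 28.6 and 27.8 CPM, overlapping WT (log2 -0.03, 95% interval -0.15 to 0.10, adjusted p = 0.734). CAT differed between all 3 KDs: it was higher in the S100A16 KD than in the hnRNPM KD by 0.79 (adjusted p = 1.82e-10) and than in the MagoHB KD by 0.37 (adjusted p = 1.73e-05). In the hnRNPM KD it was lower than in the MagoHB KD (log2 -0.42, adjusted p = 3.2e-06).

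GPX4, which reduces lipid hydroperoxides in membranes and protects cells from ferroptosis (chromosome 19, 1103926 to 1106791), had 148, 147 and 126 CPM in the hnRNPM KD and 230, 159 and 204 CPM in the MagoHB KD. The S100A16 KD had 162, 169 and 171 CPM, against 261, 242 and 255 CPM in WT. All KD libraries lay below WT, with the hnRNPM KD lowest. Its log2 fold change was -0.85 for the hnRNPM KD (SE 0.09, adjusted p = 1.52e-07), -0.59 for the S100A16 KD (adjusted p = 1.38e-05) and -0.35 for the MagoHB KD (adjusted p = 0.00326). The MagoHB KD value was -0.22 without library 2 (adjusted p = 0.00763), and -0.15 and not called with total counts alone (adjusted p = 0.121). With only the compared groups fitted it was -0.35 and also not called (adjusted p = 0.0524). Under H2O2, GPX4 had 185, 188 and 185 CPM in the S100A16 KD, against 254, 260 and 280 CPM in WT (log2 -0.51, adjusted p = 8.51e-05). Counts of CAT over counts of GPX4 within a library averaged 0.297 ± 0.011 in the S100A16 KD, 0.2 ± 0.041 in the MagoHB KD and 0.206 ± 0.013 in the hnRNPM KD, against 0.116 ± 0.0071 in WT (SD, n = 3 each). No KD library overlapped WT in that ratio, also chosen after the values were seen.

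GPX1, the general cytosolic and mitochondrial glutathione peroxidase, varied least of the scavenging genes tested when counts were scaled by TMM. Its group means ran from 48.6 CPM in WT with H2O2 to 57.8 CPM in the hnRNPM KD, a span of 0.25 on the log2 scale that was at the 2.17 percentile of all tested genes. In the hnRNPM KD it had 59.1, 53.2 and 61.2 CPM, against 52.3, 50.9 and 47.6 CPM in WT. Those groups did not overlap, but the difference of 0.20 was not called (adjusted p = 0.0528). It was called under 6 alternatives, among them leaving out hnRNPM KD library 2 (0.26, adjusted p = 0.0274).

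PRDX3 is the peroxiredoxin of the mitochondrial matrix (chromosome 10, 119167703 to 119178833). In the MagoHB KD it had 33, 23.9 and 28.5 CPM, against 51.1, 49.7 and 48.3 CPM in WT. The groups were well separated, with a log2 fold change of -0.81 (SE 0.09, adjusted p = 5.18e-07). The S100A16 KD had 46, 46.2 and 47 CPM (log2 -0.10, adjusted p = 0.389) and the hnRNPM KD 56.5, 48 and 43.1 CPM (log2 -0.01, adjusted p = 0.914). PRDX3 was higher in the S100A16 KD than in the MagoHB KD by 0.71 (adjusted p = 2.08e-06), and higher in the hnRNPM KD than in the MagoHB KD by 0.79 (adjusted p = 4.62e-07).

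PRDX6, a peroxiredoxin that uses glutathione and also has phospholipase activity, is abundant in lung. It had 52.6, 44.4 and 46.5 CPM in the MagoHB KD, against 72, 69.6 and 67.4 CPM in WT. Every MagoHB KD library was lower (log2 -0.54, SE 0.07, adjusted p = 8.89e-07). The S100A16 KD held 65.6 to 68.3 CPM and the hnRNPM KD 69.7 to 74.7 CPM, both overlapping WT. The S100A16 KD difference of -0.06 (adjusted p = 0.507) turned to 0.18 and was called with total counts alone (adjusted p = 0.0189). Of the 9 genes, PRDX3 and PRDX6 had the most alike profiles over the 6 group means, with a root mean square distance of 0.095 on the log2 scale after centring.

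PRDX5, found in mitochondria, peroxisomes and cytosol (chromosome 11, 64318088 to 64321811), moved the other way in the MagoHB KD. It had 206, 237 and 210 CPM there, against 148, 149 and 139 CPM in WT, with no overlap (log2 0.58, SE 0.06, adjusted p = 1.45e-07). The hnRNPM KD had 173, 175 and 158 CPM, also above WT (log2 0.21, adjusted p = 0.00796). That smaller rise was not called without WT library 3 (0.17, adjusted p = 0.0551). The untreated S100A16 KD had 147, 148 and 159 CPM and overlapped WT (log2 0.06, adjusted p = 0.478). Counts of PRDX5 over counts of PRDX3, both present in mitochondria, were 6.23, 9.91 and 7.38 in the MagoHB KD, against 2.9, 3 and 2.88 in WT. The ratio was 3.19, 3.2 and 3.39 in the S100A16 KD and 3.05, 3.65 and 3.66 in the hnRNPM KD, above WT by less. This ratio too was chosen after the values were seen, and it was above WT in every untreated KD library.

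PRDX4, the peroxiredoxin of the endoplasmic reticulum (chromosome X, 23664262 to 23686399), had 16.2, 17.1 and 18.2 CPM in the S100A16 KD, against 26, 27.1 and 29.1 CPM in WT. The 2 groups did not overlap (log2 -0.67, SE 0.13, adjusted p = 0.000319). Under H2O2 it had 18.2, 18.9 and 20.1 CPM in the S100A16 KD, against 29.8, 25.8 and 28.5 CPM in WT (log2 -0.55, adjusted p = 0.00177). The MagoHB KD had 24.9, 14.9 and 20.7 CPM, all below WT but widely spread (log2 -0.44, adjusted p = 0.00988). Without library 2 and the others that stand apart it was -0.26 (adjusted p = 0.00346), and it was not called with total counts alone (-0.24, adjusted p = 0.0982) or with only the compared groups fitted (adjusted p = 0.0709). The hnRNPM KD had 26.8, 23.2 and 20.9 CPM, overlapping WT (log2 -0.21, adjusted p = 0.193). PRDX4 was lower in the S100A16 KD than in the hnRNPM KD by -0.46 on the log2 scale (adjusted p = 0.00773).

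**Figure D3:**
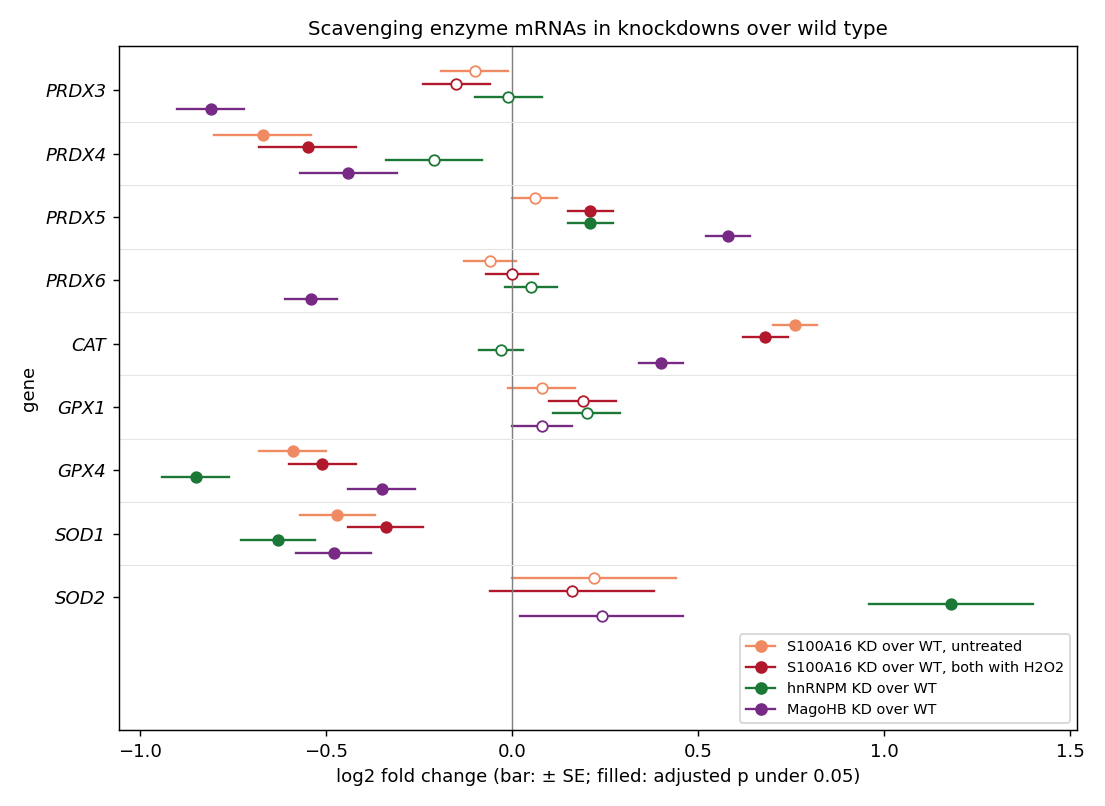
Log2 fold change of each gene in 4 comparisons of a KD over WT, with bars of ± SE; filled points have an adjusted p under 0.05 in edgeR. SOD1 and GPX4 lie left of 0 in all 4, CAT lies right of 0 in the S100A16 and MagoHB KDs, and the SOD2 bars are the widest, with an SE of 0.22.

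H2O2 itself changed none of the scavenging genes past the threshold. In WT 0 of the 9 were called by edgeR, where 0.223% of all tested genes were, and 0 had an unadjusted p under 0.05. In the S100A16 KD 0 were called, where 0.0134% of all genes were, and 1 had an unadjusted p under 0.05. DESeq2 also called 0 of the 9 in each. With so few genes called anywhere, these counts do not set the scavenging genes apart. The 95% intervals bound the change: for CAT in WT, -0.02 to 0.22 around 0.10 on the log2 scale, and for SOD1 in WT, -0.18 to 0.23 around 0.02. SOD2 had 72.1, 73.8 and 74.2 CPM in WT with H2O2, against 67.2, 70.6 and 67.7 CPM in WT, without overlap, but its difference of 0.10 had an interval of -0.38 to 0.58. That interval shares its spread with the hnRNPM and MagoHB KD libraries, in which SOD2 varied most (SD 56.6 and 26.1 CPM). The SD was 1.1 CPM in WT with H2O2 and 1.8 CPM in WT. Under 12 alternatives the difference was 0.09 to 0.12 and was never called. For the other 8 genes WT with H2O2 overlapped untreated WT.

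PRDX5 was the gene with an unadjusted p under 0.05 in the S100A16 KD. It had 173, 182 and 170 CPM with H2O2, against 147, 148 and 159 CPM untreated. The groups did not overlap, and the log2 difference was 0.21 (95% interval 0.08 to 0.34, adjusted p = 0.482 in edgeR). With the libraries that stand apart left out it was 0.19 and called (adjusted p = 0.0157). When only the compared groups were fitted, PRDX5 (0.20, adjusted p = 0.0023), GPX4 (0.14, adjusted p = 0.0176) and SOD1 (0.14, adjusted p = 0.0252) were called. In that KD GPX4 had 185, 188 and 185 CPM with H2O2, against 162, 169 and 171 CPM untreated, and its groups did not overlap either. The same held for SOD1 (438 to 454 against 391 to 413 CPM) and PRDX6 (69.4 to 78.2 against 65.6 to 68.3 CPM). Thus 4 of the 9 lay higher without overlap. The share of all tested genes without overlap was not computed for either H2O2 comparison. The S100A16 KD with H2O2 was also above WT with H2O2 for PRDX5 (log2 0.21, adjusted p = 0.0086), a call lost without WT with H2O2 library 1 (adjusted p = 0.055) or S100A16 KD with H2O2 library 2 (adjusted p = 0.0501).

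Whether the response to H2O2 differed between the S100A16 KD and WT was tested as an interaction. 0 of the 9 genes were called, where 0.0938% of all genes were, with an adjusted p of 1 for each, 0 at an unadjusted p under 0.05 and 0 by DESeq2. The difference of responses was 0.15 for PRDX5 (interval -0.03 to 0.33) and -0.08 for CAT (interval -0.25 to 0.09) on the log2 scale. For SOD2 the interval ran from -0.74 to 0.62, so that a sizeable difference in either direction was not detectable in this fit. That width too shares its spread with the hnRNPM and MagoHB KD libraries, which are not in the comparison. Under 19 alternatives the SOD2 value ran from -0.12 to -0.03 and was never called.

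**Figure D4:**
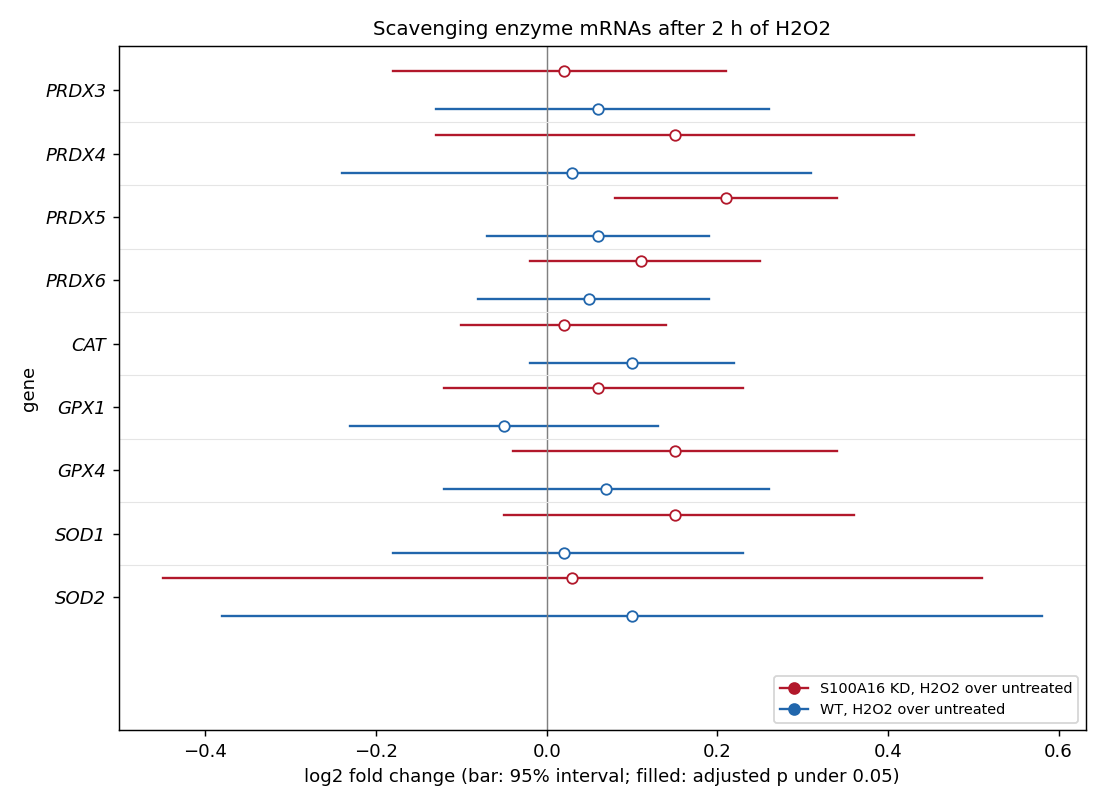
Log2 fold change after 2 h of H2O2 over untreated cells, in the S100A16 KD and in WT, with 95% intervals. No point is filled, since no gene was called in edgeR, and the PRDX5 interval in the S100A16 KD (0.08 to 0.34) lies right of 0.

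Between KDs, 5 of the 9 genes were called in the S100A16 KD against the MagoHB KD, 5 in the S100A16 KD against the hnRNPM KD and 6 in the hnRNPM KD against the MagoHB KD, where 44.8%, 48.8% and 44.5% of all tested genes were called. In that order 3 of the 9 were higher and 2 lower, 2 higher and 3 lower, and 3 higher and 3 lower. The shares of all genes that were higher and lower were 23.2% and 21.7%, 24.6% and 24.2%, and 22.3% and 22.2%. SOD2 was lower in the S100A16 KD than in the hnRNPM KD by -0.96 on the log2 scale (adjusted p = 0.00276) and higher in the hnRNPM KD than in the MagoHB KD by 0.94 (adjusted p = 0.00359). Without hnRNPM KD library 3 these were -0.62 (adjusted p = 0.0078) and 0.60 (adjusted p = 0.0107), and without MagoHB KD library 2 the second was 1.23 (adjusted p = 0.000383). GPX4 was lower in the hnRNPM KD than in the MagoHB KD by -0.50 (adjusted p = 0.000134). SOD1 was called in none of the 3, with differences of 0.01 (interval -0.19 to 0.22), 0.16 (interval -0.05 to 0.36) and -0.14 (interval -0.35 to 0.06) in the same order. Of 13 alternatives, 12, 12 and 10 kept SOD1 uncalled. It was called in the first with the libraries that stand apart left out (-0.14, adjusted p = 0.0117) and in the second with total counts alone (0.28, adjusted p = 0.00754). In the third, calls included the fit without MagoHB KD library 2 (-0.29, adjusted p = 0.000911). PRDX5 differed between the hnRNPM KD and the MagoHB KD by -0.37 (adjusted p = 4.29e-05) and between the S100A16 KD and the MagoHB KD by -0.52 (adjusted p = 3.85e-07).

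Across the 6 group means, SOD2 spanned 1.12 on the log2 scale (62nd percentile of tested genes), GPX4 0.92 and PRDX3 0.88, and the other 6 spanned 0.25 to 0.81. Over 11442 genes averaging 5 CPM or more, the profiles closest to SOD2 were those of PIBF1 (distance 0.039), C17orf58 (0.048) and IFT140 (0.072). Those closest to GPX4 were GMNN (0.030), H1FX (0.031) and H1FX-AS1 (0.034), and those closest to PRDX3 were FAM210A (0.029), ALAD (0.037) and ITPRIPL2 (0.043). Of pairs within the 9 genes, GPX4 and SOD1 were 0.117 apart and GPX4 and SOD2 0.657 apart. Spans and distances use group means, and for SOD2 those of the hnRNPM and MagoHB KDs each rest in part on 1 high library. These had 220 and 111 CPM. PIBF1 had no such library, with 27.4, 26.3 and 25.2 CPM in the hnRNPM KD and 14.8, 13.4 and 14.9 CPM in the MagoHB KD.

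The closest relatives of these enzymes changed in the KDs as well. PRDX1, the abundant cytosolic and nuclear peroxiredoxin, had 418, 395 and 291 CPM in the hnRNPM KD and 416, 418 and 395 CPM in the S100A16 KD, against 796, 803 and 799 CPM in WT. Its log2 fold change was -1.12 for the hnRNPM KD (adjusted p = 3.5e-05) and -0.95 for the MagoHB KD (adjusted p = 0.000197). PRDX1 exons are overlapped by MMACHC, on the other strand, over 24.9% of bases. MMACHC was also lower than in WT, by log2 -0.82 in the S100A16 KD (adjusted p = 7.01e-05) and -1.01 in the hnRNPM KD (adjusted p = 9.39e-06). In the MagoHB KD it was -0.80 (adjusted p = 0.000112). Whether shared reads bear on PRDX1 was not tested. GPX2, the gastrointestinal glutathione peroxidase, had 8.47, 8.72 and 9.03 CPM in the S100A16 KD, against 2.31, 1.89 and 1.8 CPM in WT (log2 2.13, adjusted p = 1.21e-09). It fell to 0.903, 0.507 and 0.971 CPM in the hnRNPM KD (log2 -1.30, adjusted p = 2.79e-05). GPX8, of the endoplasmic reticulum, rose in the S100A16 KD (log2 0.84, adjusted p = 1.73e-07) and fell in the hnRNPM KD (log2 -0.57, adjusted p = 4.87e-05). Of the 4 such relatives tested, 3 rose and 1 fell in the S100A16 KD, 0 rose and 4 fell with hnRNPM knocked down, and 2 rose and 1 fell with MagoHB knocked down. Of all tested genes 27.6%, 25.4% and 23.3% rose and 24.8%, 23.8% and 22.3% fell in the same order.

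Genes that supply reducing power mostly fell. Of 10 genes for glutathione supply and reduction, 7 fell and 2 rose in the S100A16 KD, 8 fell and 0 rose for hnRNPM, and 9 fell and 0 rose for MagoHB. Their median log2 fold change was -0.47, -0.90 and -0.55, against 0.06, 0.02 and 0.04 for all tested genes in the same comparisons. Of all tested genes 24.8%, 23.8% and 22.3% fell there. SLC7A11, the cystine importer, fell in the hnRNPM KD (log2 -2.15, adjusted p = 8.76e-10), and so did GLRX, a glutaredoxin (log2 -1.87, adjusted p = 2.33e-15). In the MagoHB KD, GSR, which regenerates glutathione, fell by 0.87 on the log2 scale (adjusted p = 8.13e-06).

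The thioredoxin system was mixed, with 3 of 10 genes higher and 4 lower in the S100A16 KD, 3 higher and 6 lower in the hnRNPM KD, and 4 higher and 3 lower in the MagoHB KD. Of all tested genes 27.6%, 25.4% and 23.3% were higher and 24.8%, 23.8% and 22.3% lower in the same order of KDs, so that several counts of this list, and most of those for selenoprotein synthesis, lay near the background. TXNRD1, the cytosolic thioredoxin reductase, fell in the hnRNPM KD (log2 -1.79, adjusted p = 5.07e-14), as did SRXN1, which repairs overoxidized peroxiredoxins (log2 -1.08, adjusted p = 3.42e-10). With S100A16 knocked down, SRXN1 was higher than in WT by 0.52 on the log2 scale without H2O2. The difference was 0.55 when both had H2O2 (adjusted p = 5.2e-06). TXN2, the mitochondrial thioredoxin, fell in that KD without H2O2 (log2 -0.55, adjusted p = 1.63e-06). With H2O2 on both sides its difference was -0.64 (adjusted p = 1.86e-07). TXNIP, an inhibitor of thioredoxin, had 2.35, 6.1 and 2.2 CPM in the MagoHB KD, against 0.687, 0.864 and 1.14 CPM in WT. Library 2 was far above its partners, and the rise of 1.99 on the log2 scale (adjusted p = 0.000162) was 1.34 (adjusted p = 7.52e-06) with the libraries that stand apart left out.

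Genes for selenoprotein synthesis, on which GPX1 and GPX4 depend, numbered 7, of which 2 fell in the S100A16 KD, 1 rose and 2 fell in the hnRNPM KD, and 2 rose in the MagoHB KD. SEPHS2, the selenophosphate synthetase, fell in the S100A16 KD (log2 -1.03, adjusted p = 2.17e-11). Of 9 genes for peroxisome import and copper delivery, 5 fell and 0 rose in the S100A16 KD, in which CAT rose. Among them PEX2 fell by 0.50 on the log2 scale (adjusted p = 1.67e-05). CCS, the copper chaperone of SOD1, rose in the hnRNPM KD (log2 0.54, adjusted p = 3.11e-05), in which SOD1 fell. Of 8 tested oxidases that make peroxide or superoxide, 5 rose and 0 fell in the S100A16 KD, 3 rose in the hnRNPM KD, and 2 rose and 1 fell in the MagoHB KD. For the lists in this paragraph, the shares of all tested genes that rose were 27.6%, 25.4% and 23.3% in the same order of KDs. Those that fell were 24.8%, 23.8% and 22.3%, so that the oxidase counts of the MagoHB KD lay near the background. SMOX, spermine oxidase, rose in the S100A16 KD (log2 0.63, adjusted p = 1.53e-05).

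Among 11 NRF2 targets and regulators, some of which are also in the lists above, 7 fell and 2 rose in the S100A16 KD, 10 fell and 1 rose in the hnRNPM KD, and 9 fell and 1 rose in the MagoHB KD. Of all tested genes 24.8%, 23.8% and 22.3% fell in the same order. The falls are not those of targets alone, since the regulator KEAP1 is counted among them in each KD (log2 -0.56, -0.73 and -0.31). HMOX1, heme oxygenase, had 49.9, 51.1 and 54.2 CPM in the MagoHB KD, against 22, 23.5 and 24.5 CPM in WT (2.22-fold, adjusted p = 1.9e-11). NFE2L2, which encodes NRF2, fell in the hnRNPM KD (log2 -0.78, adjusted p = 3.29e-10). Of 10 NF-kB targets, 8 rose in the S100A16 KD, 8 with hnRNPM knocked down and 9 with MagoHB knocked down, and 0 fell in any, where 27.6%, 25.4% and 23.3% of all tested genes rose. RELB rose in the hnRNPM KD (log2 1.52, adjusted p = 9.57e-05) and NFKB2 in the S100A16 KD (log2 1.33, adjusted p = 0.000244). TRAF1, a signalling adaptor, had 22.5, 28.1 and 50.3 CPM with hnRNPM knocked down and 15.3, 61.2 and 21.5 CPM with MagoHB knocked down, against 4.51, 3.59 and 3.87 CPM in WT. Libraries 3 and 2 of those KDs, the highest here, were also the highest of their group for SOD2 and are those that stand apart. Their part in the list's rise was examined by leaving out the 3 libraries that stand apart, an alternative added after the values were seen. By calls, 8 of the 10 then rose and 1 fell in the S100A16 KD. With hnRNPM knocked down 10 rose, and with MagoHB knocked down 9. Every gene of the list then had a lower log2 fold change with hnRNPM or MagoHB knocked down. TNFAIP3 went from 0.82 to 0.28 for hnRNPM and TRAF1 from 3.04 to 2.21 for MagoHB. Between KDs, 7 were called higher in the S100A16 KD than in the MagoHB KD, in place of 0. Against the hnRNPM KD it was 6 in place of 0. In the hnRNPM KD 5 were called higher than in the MagoHB KD, in place of 1. Those called lower numbered 1, 3 and 1 in place of 1, 2 and 1. The counts of the other 7 lists then moved by at most 1 gene in either direction. After H2O2, edgeR called 0 of the 63 tested genes of these 8 lists in WT, in the S100A16 KD and in the interaction. In those comparisons 6, 1 and 1 of the 63 had an unadjusted p under 0.05, and DESeq2 called 0 in each.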

How the data were processed

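Poly(A) RNA was sequenced in 18 libraries, 3 in each of 6 groups taken from the labels. Read counts per gene, as whole numbers, and RPKM of those genes were deposited by the authors. Their build was GRCh38 and their tools included DESeq2 1.32.0, StringTie 2.1.4 and HISAT2 2.2.1, per the submitters' processing notes. The sources used here do not name the counting program, its annotation or its use of strand. The deposited RPKM equalled counts over exon length and total counts in 100% of 531539 values above 0 (tolerance 0.001, relative). From 1 to 19, only 18.6% to 22% of a library's counts were odd, so halved counts were tried. Per-sample columns left unused numbered 0.

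For 10 comparisons, counts were tested with edgeR 4.0.16 in R 4.3.3 (quasi-likelihood F test, robust, TMM, filterByExpr), fitting 1 mean per group over all libraries. The Benjamini-Hochberg adjustment ran over 22382 genes. The steps were tested on simulated data. Members, gene lists and tests were chosen with earlier results of these data known. Named were all members, the targeted genes, up to 3 called genes with the smallest adjusted p per list and comparison, and the 3 closest profiles for the 3 members of widest range. Some genes so named are not reported here. The count ratios and the choice of promoters shown were added after values were seen. Promoters came from RefSeq, of which the window nearest a principal GENCODE 29 start was taken. PRDX6 and SOD1 had no entry. Alternatives were total counts alone, no filter, a replicate block, halved counts, the compared groups only, DESeq2 1.42.0, and leaving out libraries.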

Additional observations from a re-analysis of the deposited data

How the results depend on the processing

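Of 1206 values of the 9 tested genes under the alternatives, 1146 kept their call, 35 gained one, 22 lost one and 3 changed direction with a call. Another 22 changed sign without a call in either, at most 0.27 on the log2 scale. The changes of direction were PRDX6 in the untreated S100A16 KD against WT with total counts alone (0.18), and SOD1 (-0.14) and SOD2 (0.25) in the S100A16 KD against the MagoHB KD with the libraries that stand apart left out. The cause was not tested.

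Called scavenging genes numbered 1 (libraries that stand apart left out) and 3 (compared groups only) for H2O2 in the S100A16 KD in place of 0. They numbered 7 in place of 4 in the untreated S100A16 KD against WT with total counts alone, 8 in place of 5 in the same pair under H2O2 with the compared groups only, and 8 in place of 5 in the S100A16 KD against the MagoHB KD with the libraries that stand apart left out. Leaving out 1 library at a time gave 0 to 0 for both H2O2 comparisons and the interaction, 4 to 4 and 4 to 5 for the S100A16 KD against WT untreated and under H2O2, 3 to 5 for the hnRNPM KD and 7 to 7 for the MagoHB KD against WT. It gave 4 to 7 for the S100A16 KD against the MagoHB KD, 3 to 4 against the hnRNPM KD and 6 to 8 for the hnRNPM KD against the MagoHB KD.

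Over all genes, the 50 calls for H2O2 in WT became 85 with no filter, 555 with the compared groups only and 97 in DESeq2. The 3 in the S100A16 KD became 25, 801 and 54, or 364 with the libraries that stand apart left out and 3 to 7 without 1 library. The 21 of the interaction became 45, 256 and 35, or 190, and 13 to 17 without 1 library. Total counts alone in place of TMM moved the median of all genes by 0.24 (S100A16 KD), 0.18 (S100A16 KD under H2O2), 0.11 (hnRNPM KD) and 0.21 (MagoHB KD) against WT on the log2 scale. It moved the share of calls that were higher to 74%, 70%, 63.1% and 74.7%, against 52.7%, 53.1%, 51.6% and 51.1% with TMM. In the S100A16 KD against the hnRNPM KD the share was 62.9% against 50.4%, and in the hnRNPM KD against the MagoHB KD 39.1% against 50.2%.

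No pairing by replicate number was seen, with same-numbered deviations from group means correlating from -0.17 to 0.24. Both extremes came from the hnRNPM KD against the MagoHB KD, where each group holds 1 library that stands apart. Such correlations with 3 libraries per group cannot exclude a pairing. With the replicate number as a block the called scavenging genes remained 0, 0, 0, 4, 5, 4, 7, 5, 5 and 6 in number.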
